A study of Homo sapiens with 18 samples.

Results

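Transcript levels of 36 genes that act in mitosis and in the assembly of the spindle were measured by RNA sequencing in human neuroblastoma cell lines that had become resistant to entrectinib and in the line they came from. The genes are the rows of the deposited table whose Ensembl identifier maps to a listed symbol in GENCODE 29. All 36 were found among the 63657 identifiers of the table, on 15 chromosomes, and all 36 passed the filter on low values. None was listed at 0 in any library, and the lowest value was 2.58 FPKM. FPKM are fragment numbers scaled by transcript length and by library size, so levels of different genes can be set side by side.

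The 18 libraries came from 6 lines with 3 libraries each. The resistant lines ER5, ER28 and ER29 were grown out of subcutaneous SY5Y-TrkB tumours in athymic nu/nu mice given oral entrectinib at 60 mg/kg every 4 hours. ER42 and ER47 came from tumours of mice dosed every 6 hours at the same dose. Entrectinib inhibits the Trk receptors, ALK and ROS1, and each tumour had responded before it regrew. In culture these lines were taken through rising concentrations from 10 nM to 750 nM entrectinib and were held at 200 nM for harvest. The parental line, SY5Y_BR6, has no dosing interval and no drug in its labels. Each resistant line stands for 1 tumour, and resistance, growth in drug, the time in a mouse and the history in culture cannot be told apart. Whether replicate libraries were grown as separate cultures is not in the labels. The p-values therefore cover only the spread between these libraries, which may be technical.

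Entry into mitosis is driven by the kinase CDK1 bound to cyclin A or cyclin B and released from inhibition by CDC25 phosphatases. Aurora and Polo kinases, the kinetochore and kinesin motors then build the spindle and attach chromosomes to it. The spindle checkpoint holds back the anaphase-promoting complex until every chromosome is attached. Most of these genes are transcribed in G2 and M phase, under the MuvB complex with MYBL2 and FOXM1, which makes them common markers of dividing cells. In bulk RNA a smaller share of dividing cells and less transcript in each of them cannot be told apart.

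The mitotic genes were lower in the resistant lines, and the 5 lines differed widely in how much lower. At the median gene, the mean FPKM stood at 32.2% of the parental mean in ER5, 42.5% in ER29 and 54.6% in ER47, but at 77.0% in ER28 and 77.4% in ER42. In ER5 the range over the genes ran from 25.3% for FOXM1 to 51.8% for INCENP, and in ER42 from 62.3% for CDCA8 to 117% for HMMR. In limma on log2(FPKM + 1), with Benjamini-Hochberg (BH) adjustment over all 19799 genes tested and a threshold of 0.05, 36 of the 36 genes were lower in ER5, where 27.5% of all genes tested were. The same count was 36 in ER29 (27.1% of all genes), 35 in ER47 (28.1%), 20 in ER42 (22.8%) and 19 in ER28 (20.9%), and 0 were called higher in any line, where between 14.6% (ER28) and 24.5% (ER5) of all genes tested were (23.1% in ER29, 18.8% in ER47 and 16.9% in ER42). The median log2 difference of the 36 was -1.58 in ER5, -1.19 in ER29, -0.85 in ER47, -0.37 in ER28 and -0.36 in ER42.

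In the mean of the 5 lines all 36 genes were called lower, with a median log2 difference of -0.84, while 28.9% of all genes tested were called lower and their median was 0.02. All 36 are protein-coding. In a fit of protein-coding genes only, 40.8% of the genes were called lower in the mean and their median was -0.08. Differences of the 36 lay between -1.19 for CCNB1 and -0.36 for HMMR. These 5 comparisons share the 3 parental libraries. The error of the mean comes from libraries within lines and does not measure how lines of this kind vary. Called lower in all 5 lines were 17 of the 36 genes, against 12.3% of all genes tested: CCNA2, CCNB1, CCNB2, PLK1, AURKA, BUB1, MAD2L1, CDC20, UBE2C, AURKB, INCENP, BIRC5, CDCA8, KIF23, TPX2, PRC1 and FOXM1. The other 19 were called in ER5 and ER29 and, with the exception of HMMR, in ER47, but were missed in ER28, in ER42 or in both. The counts for ER42 and for all 5 lines rested on single libraries. Without ER42 replicate 1 or 3 the ER42 count was 8 and 9, and without parental replicate 1, 2 or 3 it was 11, 9 and 12. With all libraries 22.8% of all genes tested were called lower in ER42, which a count of 8 or 9 does not clearly exceed. The count over all 5 lines was 8 without ER42 replicate 1 and 8 without ER42 replicate 3. It was 10, 9 and 10 without parental replicate 1, 2 or 3, and 11 without ER28 replicate 2. Quantile normalisation left 10 of the 36 called lower in ER28, 5 in ER42 and 4 in all 5 lines. Of all genes tested 15.75% were then called lower in ER28 and 18.4% in ER42, so the ER42 count lay below that share.

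**Figure D1:**
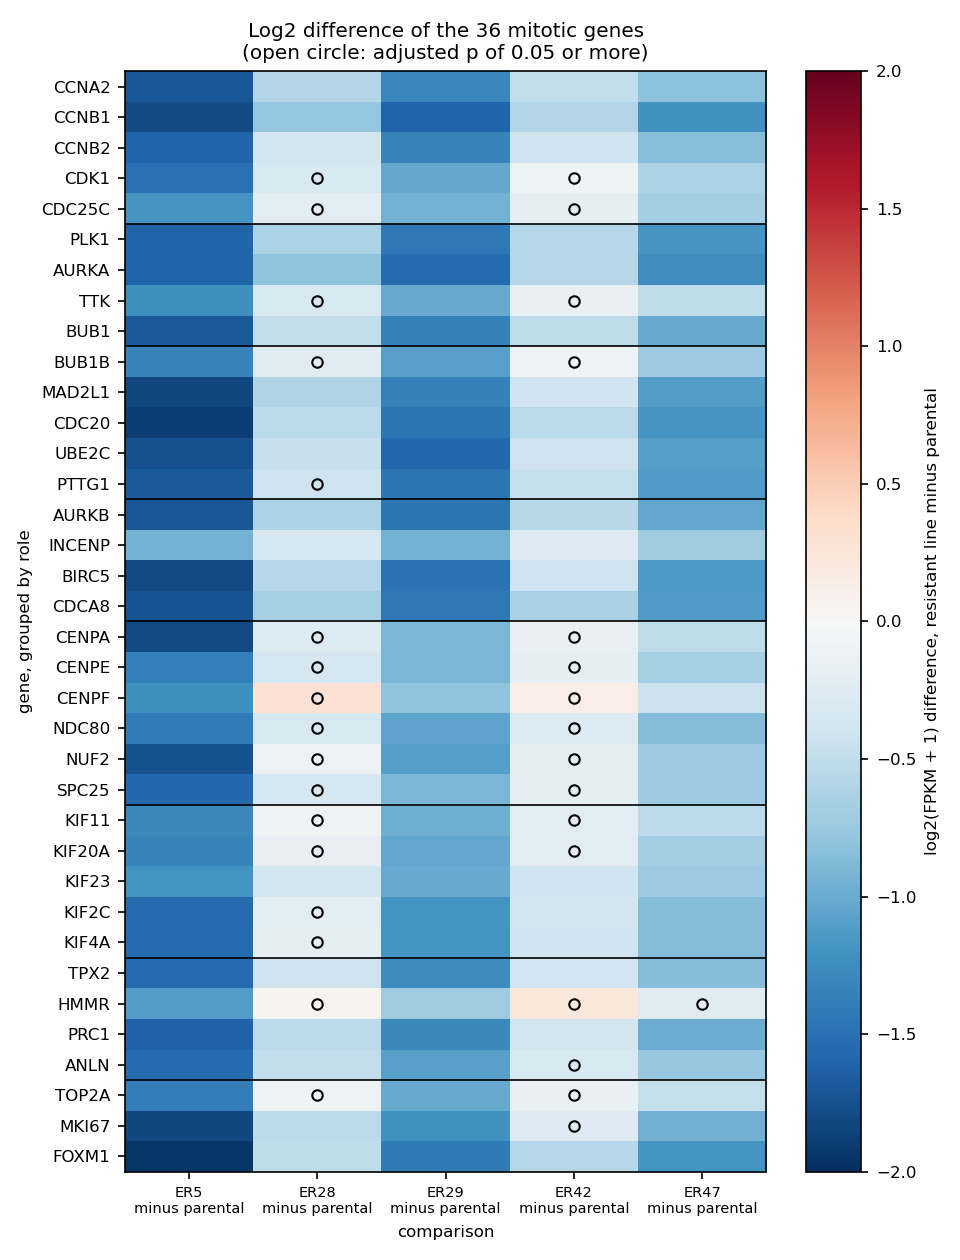
Log2(FPKM + 1) difference of each resistant line from the parental line for the 36 mitotic genes, grouped by role from cyclins at the top to chromosome and transcription genes at the bottom. Blue is lower and red is higher than parental, and an open circle marks an adjusted p of 0.05 or more. The columns of ER5 and ER29 are blue throughout, whereas the circles gather in ER28 (17 genes) and ER42 (16 genes).

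The letters of the promoters were searched for the motifs known from cell cycle genes. One is the cell cycle genes homology region, TTTGAA or its variant TTCGAA, to which the MuvB complex binds. The other is CCAAT, the element bound by the trimeric factor NF-Y. Promoters of 30 of the 36 genes were matched in RefSeq (GRCh38.p14); AURKA, TTK, UBE2C, BIRC5, TPX2 and FOXM1 were not. Both strands were searched from 250 bases before to 50 bases after the start. TTTGAA or TTCGAA was present in 22 of 30 promoters (73.3%), against 16.4% of all 35116 promoters in the table. CCAAT was present in 23 of 30 (76.7%), against 34.6%, and at least 2 copies of it in 14 of 30 (46.7%), against 10.8%. Both motifs occurred in 18 of 30 (60%), against 6.38% of all promoters. In the bases before the start alone, 17 of 30 (56.7%) had TTTGAA or TTCGAA, against 14.3%. The motifs are known from genes of this kind, so the shares describe the list and do not bear on its change in these lines. Each of the 30 genes was given a single promoter, whereas every promoter entry was taken for the comparison. These matches describe letters, not bound sites.

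The 150 bases before the start are printed for the gene with the largest difference in each role that has a promoter in the table. Capitals mark the motifs named above, and a CCAAT on the other strand reads ATTGG. Each line runs 5′ to 3′ on the strand of the gene in GRCh38.p14.
CCNB1 promoter, chr5:69167000-69167149, plus strand: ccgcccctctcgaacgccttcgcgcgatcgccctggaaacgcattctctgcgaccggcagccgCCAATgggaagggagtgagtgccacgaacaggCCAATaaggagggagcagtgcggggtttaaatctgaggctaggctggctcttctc
PLK1 promoter, chr16:23678739-23678888, plus strand: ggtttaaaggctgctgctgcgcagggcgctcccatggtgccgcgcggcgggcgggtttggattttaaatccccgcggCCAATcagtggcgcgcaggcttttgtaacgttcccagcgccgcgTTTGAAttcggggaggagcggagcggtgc
CDC20 promoter, chr1:43358831-43358980, plus strand: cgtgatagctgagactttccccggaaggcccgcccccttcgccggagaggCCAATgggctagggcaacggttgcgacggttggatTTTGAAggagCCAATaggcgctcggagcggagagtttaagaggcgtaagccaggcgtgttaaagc
CDCA8 promoter, chr1:37692366-37692515, plus strand: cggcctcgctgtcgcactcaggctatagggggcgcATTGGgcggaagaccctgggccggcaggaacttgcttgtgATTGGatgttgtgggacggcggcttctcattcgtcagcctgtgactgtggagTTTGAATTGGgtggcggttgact
NDC80 promoter, chr18:2571407-2571556, plus strand: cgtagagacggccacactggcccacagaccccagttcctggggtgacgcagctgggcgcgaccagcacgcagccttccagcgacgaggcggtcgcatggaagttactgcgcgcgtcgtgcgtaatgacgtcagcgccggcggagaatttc
KIF4A promoter, chrX:70289954-70290103, plus strand: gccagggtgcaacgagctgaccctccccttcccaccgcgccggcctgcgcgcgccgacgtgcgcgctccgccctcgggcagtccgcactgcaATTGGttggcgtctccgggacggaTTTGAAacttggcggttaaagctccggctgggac
PRC1 promoter, chr15:90994536-90994685, minus strand: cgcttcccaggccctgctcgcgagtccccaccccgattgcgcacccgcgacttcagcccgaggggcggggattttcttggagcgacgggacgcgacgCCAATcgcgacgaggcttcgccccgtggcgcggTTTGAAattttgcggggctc
MKI67 promoter, chr10:128126424-128126573, minus strand: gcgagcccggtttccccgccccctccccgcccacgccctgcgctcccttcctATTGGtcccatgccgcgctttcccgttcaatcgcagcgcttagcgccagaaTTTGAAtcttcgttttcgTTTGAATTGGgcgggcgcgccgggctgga
PLK1, CDC20, KIF4A and PRC1 have TTTGAA and CCAAT apart from each other in this stretch. In CDCA8 and MKI67, a TTTGAA runs into an ATTGG with which it shares letters. CCNB1 has CCAAT at 2 places and neither form of the homology region here, and NDC80 has neither motif here.

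Cyclins and CDK1 activation came first by role, with 5 genes. Of these 5 were called lower in ER5, ER29 and ER47 (27.5%, 27.1% and 28.1% of all genes tested were). In all 5 lines 3 were called lower (12.3% of all genes tested were). CCNB1 (ENSG00000134057, chromosome 5) encodes cyclin B1, the cyclin that carries CDK1 into mitosis. Its libraries read 32.3, 22.4 and 33.7 FPKM in ER5, 35.5, 27.5 and 37.4 in ER29, 38.5, 42.00 and 51.3 in ER47, 59.4, 55.7 and 64.03 in ER28 and 72.8, 75.2 and 56.6 in ER42, against 103, 104 and 101 in the parental line. Every resistant library lay below every parental one, and the ER5 and ER29 libraries lay near each other at the bottom. The log2 difference of CCNB1 was -1.79 in ER5, -1.60 in ER29, -1.21 in ER47, -0.77 in ER28 and -0.59 in ER42, each ± 0.15 (SE), and its mean of -1.19 ± 0.12 (limma, BH-adjusted p = 8.72e-07) was the largest of the 36 on the log2(FPKM + 1) scale. In ER42 the call for CCNB1 was lost under quantile normalisation (-0.37, limma BH-adjusted p = 0.067). Cyclin A2 (CCNA2) and cyclin B2 (CCNB2) were also called lower in all 5 lines, with means of -0.98 and -0.91. CDK1 itself had a mean of -0.71 and stood at 94.8% of its parental level in ER42, where its difference of -0.08 was not called.

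CDC25C (ENSG00000158402, chromosome 5), a phosphatase that activates CDK1, had the smallest mean log2(FPKM + 1) difference of this role. CDC25C was also the lowest transcript of all 36, and this scale understates changes of low genes. It was measured at 2.58, 2.63 and 3.17 FPKM in ER5, 3.47, 3.38 and 3.52 in ER29, 3.84, 4.19 and 5.27 in ER47, 6.53, 6.81 and 5.81 in ER28 and 6.90, 6.71 and 6.29 in ER42, against 8.27, 7.83 and 6.83 in the parental line. All libraries but ER42 replicate 1 lay below the parental range. Differences of CDC25C were -1.19 in ER5, -0.95 in ER29, -0.68 in ER47, -0.23 in ER28 and -0.18 in ER42, each ± 0.10 (SE). The calls in ER5, ER29 and ER47 passed, those in ER28 and ER42 did not (limma, BH-adjusted p = 0.102 and 0.186), and the mean was -0.64 ± 0.08 (limma, BH-adjusted p = 7.16e-06). In percent of the parental mean CDC25C stood lower than CDK1 in ER29 (45.2% and 48.5%), ER47 (58.0% and 64.1%) and ER42 (86.8% and 94.8%). It stood higher than CDK1 in ER5 (36.6% and 34.7%) and ER28 (83.5% and 80.3%).

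Mitotic kinases numbered 4, and 3 of them (PLK1, AURKA and BUB1) were called lower in all 5 lines (12.3% of all genes tested were). Aurora kinase A, encoded by AURKA (ENSG00000087586, chromosome 20), matures centrosomes and builds the spindle poles. AURKA stood at 9.76, 6.16 and 10.2 FPKM in ER5, 9.01, 8.52 and 9.58 in ER29, 10.01, 10.1 and 14.3 in ER47, 15.9, 14.8 and 16.1 in ER28 and 18.6, 20.2 and 17.03 in ER42, against 27.02, 29.8 and 27.3 in the parental line. None of the 15 resistant libraries reached the parental range, and ER5 and ER29 overlapped. Against the parental line AURKA differed by -1.61 in ER5, -1.53 in ER29, -1.24 in ER47, -0.81 in ER28 and -0.57 in ER42, each ± 0.15 (SE), with a mean of -1.15 ± 0.12 (limma, BH-adjusted p = 9.24e-07). PLK1, the Polo kinase that acts from mitotic entry to cytokinesis, had a mean difference of -1.08, and the checkpoint kinase BUB1 had -1.01.

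TTK (ENSG00000112742, chromosome 6), also called MPS1, starts the checkpoint signal at unattached kinetochores. Libraries of TTK held 8.68, 6.35 and 9.97 FPKM in ER5, 9.08, 9.24 and 11.00 in ER29, 12.6, 14.5 and 15.8 in ER47, 16.1, 16.5 and 16.2 in ER28 and 16.5, 20.6 and 18.3 in ER42, against 20.3, 21.1 and 20.2 in the parental line. One ER42 library lay inside the parental range and all others below it. TTK differed by -1.23 in ER5, -1.004 in ER29, -0.50 in ER47, -0.32 in ER28 and -0.15 in ER42, each ± 0.12 (SE), and the mean was -0.64 ± 0.10 (limma, BH-adjusted p = 4.66e-05). The ER42 difference was not called (limma, BH-adjusted p = 0.35), nor was that of ER28 (0.0592). That ER28 call passed without ER5 replicate 2 (0.017) or ER5 replicate 3 (0.033), with 5 as pseudocount (0.0373), with the filter raised to FPKM 5 (0.0452) and with protein-coding genes only (0.0378).

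Checkpoint and anaphase genes were 5. MAD2L1, which blocks the anaphase-promoting complex, CDC20 and the ubiquitin-conjugating enzyme UBE2C were called lower in all 5 lines (12.3% of all genes tested were). CDC20 (ENSG00000117399, chromosome 1) activates that complex and is the target of the checkpoint. CDC20 libraries stood at 13.5, 9.50 and 13.3 FPKM in ER5, 16.00, 14.6 and 19.3 in ER29, 19.3, 18.3 and 23.4 in ER47, 34.01, 28.01 and 34.3 in ER28 and 33.1, 37.8 and 26.3 in ER42, against 44.97, 48.1 and 47.7 in the parental line. All 15 resistant libraries lay below the parental range, which was narrow. Differences came to -1.89 in ER5, -1.45 in ER29, -1.18 in ER47, -0.54 in ER28 and -0.53 in ER42, each ± 0.15 (SE), with a mean of -1.12 ± 0.12 (limma, BH-adjusted p = 1.15e-06). In ER28 the call for CDC20 was lost without ER28 replicate 2 (-0.45, limma BH-adjusted p = 0.0533), and in ER42 without ER42 replicate 3 (-0.40, 0.0569) and under quantile normalisation (-0.35, 0.0626). PTTG1, the securin that guards sister chromatid cohesion, had a mean of -1.03 and was called in every line but ER28.

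BUB1B (ENSG00000156970, chromosome 15) encodes BUBR1, a subunit of the complex that inhibits CDC20. BUB1B was at 17.3, 15.7 and 24.5 FPKM in ER5, 19.6, 23.6 and 24.9 in ER29, 24.96, 28.3 and 34.97 in ER47, 45.5, 39.8 and 38.2 in ER28 and 42.9, 53.6 and 41.96 in ER42, against 50.3, 47.6 and 48.8 in the parental line. Replicate 2 of ER42 was above the whole parental range, and the other 14 resistant libraries were below it. BUB1B differed by -1.33 in ER5, -1.08 in ER29, -0.73 in ER47, -0.25 in ER28 and -0.09 in ER42, each ± 0.15 (SE) and by -0.70 ± 0.12 (limma, BH-adjusted p = 0.000144) in the mean. It was called in ER5, ER29 and ER47 and missed in ER28 and ER42 (limma, BH-adjusted p = 0.236 and 0.665).

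The chromosomal passenger complex was the one role in which every gene was called lower in every line (12.3% of all genes tested were). INCENP, however, lost its calls in ER28 and ER42 under quantile normalisation. The 4 members of the complex are the kinase AURKB, the scaffold INCENP, survivin (BIRC5) and borealin (CDCA8), which together correct faulty attachments of chromosomes. AURKB and BIRC5 both had a mean difference of -1.08. CDCA8 (ENSG00000134690, chromosome 1) was measured at 7.24, 4.73 and 7.15 FPKM in ER5, 7.57, 7.70 and 8.59 in ER29, 9.18, 8.87 and 12.03 in ER47, 15.4, 13.03 and 14.4 in ER28 and 13.8, 16.7 and 12.6 in ER42, against 21.9, 23.1 and 24.1 in the parental line. The 15 resistant libraries were all lower than the parental ones, with ER5 replicate 2 lowest. CDCA8 differed by -1.72 in ER5, -1.43 in ER29, -1.14 in ER47, -0.66 in ER28 and -0.65 in ER42, each ± 0.14 (SE), and the mean was -1.12 ± 0.11 (limma, BH-adjusted p = 6.14e-07).

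INCENP (ENSG00000149503, chromosome 11) was a more abundant transcript that moved less. INCENP libraries held 44.3, 36.7 and 43.8 FPKM in ER5, 41.7, 40.5 and 41.95 in ER29, 45.6, 46.4 and 54.9 in ER47, 67.4, 56.7 and 67.1 in ER28 and 66.7, 69.98 and 64.7 in ER42, against 77.2, 80.7 and 83.2 in the parental line. Every resistant library was below the parental range, and ER5 and ER29 had nearly the same level. The differences of INCENP were -0.94 in ER5, -0.94 in ER29, -0.71 in ER47, -0.33 in ER28 and -0.26 in ER42, each ± 0.09 (SE), with a mean of -0.64 ± 0.07 (limma, BH-adjusted p = 1.22e-06). The ER42 call (limma, BH-adjusted p = 0.0265) was lost without ER42 replicate 1 (0.0587), without ER42 replicate 3 (0.0825), without parental replicate 2 (0.0644) and without parental replicate 3 (0.0834). Under quantile normalisation INCENP differed by -0.16 in ER28 (0.15) and by -0.06 in ER42 (0.638), and neither was called.

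Centromere and kinetochore genes numbered 6, and all 6 were called lower in ER5, ER29 and ER47 (27.5%, 27.1% and 28.1% of all genes tested were). In ER28 and ER42 0 were called lower (20.9% and 22.8% of all genes tested were). With 6 genes, a count of 0 cannot be set apart from such shares. The median difference of these 6 in ER28 was -0.29, against -0.37 for all 36 genes and -0.19 for the mitotic kinesins, and in ER42 it was -0.18, against -0.36 for all 36. Roles were not tested against each other. The 6 are the centromeric histone variant CENPA, the kinetochore motor CENPE, CENPF and 3 subunits of the microtubule-binding NDC80 complex. NDC80 (ENSG00000080986, chromosome 18) had the largest mean difference of the 6. It was at 11.3, 7.01 and 11.9 FPKM in ER5, 10.3, 12.5 and 15.8 in ER29, 13.2, 13.7 and 17.2 in ER47, 22.4, 21.7 and 21.4 in ER28 and 20.6, 25.6 and 21.7 in ER42, against 27.2, 27.3 and 27.8 in the parental line. All resistant libraries were below the parental ones. Differences of NDC80 were -1.40 in ER5, -1.05 in ER29, -0.87 in ER47, -0.32 in ER28 and -0.27 in ER42, each ± 0.17 (SE), and the mean was -0.78 ± 0.13 (limma, BH-adjusted p = 0.000104). In ER28 and ER42 they did not pass (limma, BH-adjusted p = 0.152 and 0.201). Its partners NUF2 and SPC25 had means of -0.77 and -0.75, CENPA had -0.73 and CENPE had -0.69.

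CENPF (ENSG00000117724, chromosome 1), a large protein of the outer kinetochore, was one of 2 genes whose parental mean was not the highest of the 6 lines. The libraries of CENPF read 49.5, 34.7 and 65.1 FPKM in ER5, 59.2, 63.2 and 73.2 in ER29, 76.2, 82.1 and 98.6 in ER47, 143, 141 and 137 in ER28 and 117, 139 and 124 in ER42, against 116, 115 and 113 in the parental line. The ER5, ER29 and ER47 libraries were below the parental range, and those of ER28 and ER42 were all above it, ER42 replicate 1 by little. CENPF differed by -1.23 in ER5, -0.81 in ER29, -0.43 in ER47, 0.29 in ER28 and 0.14 in ER42, each ± 0.16 (SE). The differences in ER28 and ER42 were not called (limma, BH-adjusted p = 0.185 and 0.522), although under quantile normalisation ER28 was called higher (0.49, 0.0431). The mean of -0.41 ± 0.12 (limma, BH-adjusted p = 0.0118) was not called under quantile normalisation (-0.15, 0.384). In ER47 the call (0.0401) was lost with no filter (0.0829), with median-of-ratios scaling (0.056) and with quantile normalisation (0.64). It was also lost without any 1 of the 3 parental libraries (0.0889, 0.0825 and 0.0759 for replicates 1 to 3) and without ER47 replicate 1 (0.141) or replicate 2 (0.102).

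Mitotic kinesins numbered 5, and all 5 were called lower in ER5, ER29 and ER47 (27.5%, 27.1% and 28.1% of all genes tested were). Only KIF23, a motor of the central spindle, was called in all 5 lines (mean -0.74). KIF4A (ENSG00000090889, chromosome X), which shapes chromosomes and sets the length of the central spindle, had 10.9, 7.42 and 11.8 FPKM in ER5, 12.3, 12.3 and 13.9 in ER29, 15.3, 15.4 and 18.8 in ER47, 27.6, 25.1 and 27.9 in ER28 and 20.3, 24.3 and 24.6 in ER42, against 30.2, 30.6 and 31.4 in the parental line. The 15 resistant libraries were below the parental range, ER28 by little. KIF4A differed by -1.55 in ER5, -1.20 in ER29, -0.86 in ER47, -0.19 in ER28 and -0.40 in ER42, each ± 0.13 (SE), with a mean of -0.84 ± 0.10 (limma, BH-adjusted p = 4.64e-06). ER28 was not called (limma, BH-adjusted p = 0.287). The ER42 call (0.0218) was lost without ER42 replicate 1 (0.0896), parental replicate 2 (0.0511) or parental replicate 3 (0.0599), and under quantile normalisation (-0.27, 0.115).

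KIF11 (ENSG00000138160, chromosome 10), the motor that pushes spindle poles apart, was at 14.5, 11.4 and 17.7 FPKM in ER5, 17.1, 16.97 and 20.3 in ER29, 23.1, 22.1 and 29.1 in ER47, 33.5, 34.3 and 33.2 in ER28 and 27.7, 34.6 and 30.7 in ER42, against 36.7, 36.03 and 36.3 in the parental line. Every resistant library lay below the parental range, which spanned under 1 FPKM. Differences of KIF11 were -1.29 in ER5, -0.97 in ER29, -0.55 in ER47, -0.11 in ER28 and -0.23 in ER42, each ± 0.13 (SE) and -0.63 ± 0.10 (limma, BH-adjusted p = 8.31e-05) in the mean. In ER28 and ER42 they were not called (limma, BH-adjusted p = 0.564 and 0.173). KIF2C, a kinesin that takes microtubules apart, had a mean of -0.84, and KIF20A, which acts in cytokinesis, had -0.69.

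Spindle and cytokinesis proteins were 4. TPX2, which activates Aurora A on the spindle, was called lower in all 5 lines with a mean of -0.90. So was PRC1 (ENSG00000198901, chromosome 15), the protein that bundles microtubules in the central spindle. PRC1 stood at 27.4, 25.4 and 36.4 FPKM in ER5, 35.96, 34.00 and 42.4 in ER29, 45.3, 40.9 and 52.1 in ER47, 63.9, 59.9 and 68.9 in ER28 and 67.2, 76.7 and 70.7 in ER42, against 94.9, 91.6 and 89.9 in the parental line. No resistant library reached the parental range. PRC1 differed by -1.62 in ER5, -1.28 in ER29, -0.99 in ER47, -0.52 in ER28 and -0.36 in ER42, each ± 0.12 (SE), and the mean was -0.95 ± 0.09 (limma, BH-adjusted p = 5.7e-07). The ER42 call (limma, BH-adjusted p = 0.0247) was lost without ER42 replicate 1 (0.0784), ER42 replicate 3 (0.0611), parental replicate 1 (0.0734) or parental replicate 2 (0.0555). Under quantile normalisation PRC1 was called in neither ER28 (-0.33, 0.0518) nor ER42 (-0.15, 0.364). ANLN, the actin-binding scaffold of the contractile ring, had a mean of -0.84 and was called in every line but ER42.

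HMMR (ENSG00000072571, chromosome 5), a spindle pole protein that also binds hyaluronan, differed least of the 36 in the mean. HMMR libraries held 11.97, 7.72 and 12.5 FPKM in ER5, 14.1, 13.2 and 15.6 in ER29, 19.5, 18.6 and 22.6 in ER47, 24.5, 25.2 and 25.2 in ER28 and 27.9, 30.96 and 25.4 in ER42, against 23.8, 23.6 and 24.8 in the parental line. ER5, ER29 and ER47 were below the parental range, ER42 was above it, and ER28 overlapped it. HMMR differed by -1.12 in ER5, -0.72 in ER29, -0.24 in ER47, 0.05 in ER28 and 0.21 in ER42, each ± 0.13 (SE), and was called in ER5 and ER29 only. Without ER5 replicate 2 the ER47 difference passed (limma, BH-adjusted p = 0.023, against 0.141). The mean was -0.36 ± 0.10 (limma, BH-adjusted p = 0.00678), and under quantile normalisation it was -0.23 (0.0533). ER42 was called higher there (0.34, 0.0457).

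**Figure D2:**
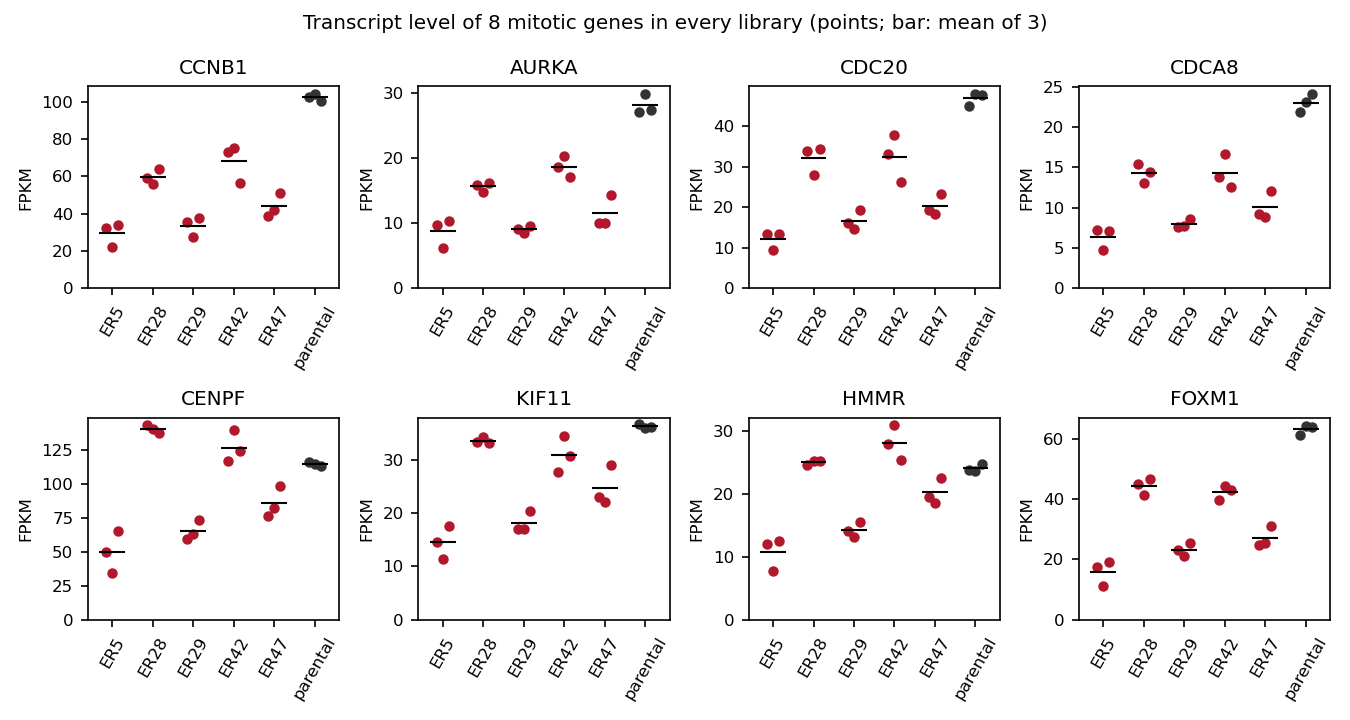
FPKM of 8 of the mitotic genes in every library, by line, with resistant lines in red and the parental line in dark grey. Each point is 1 library and each bar is the mean of 3. CCNB1, AURKA, CDC20, CDCA8, KIF11 and FOXM1 are highest in the parental line, whereas CENPF and HMMR in ER28 and ER42 reach the parental level or exceed it.

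FOXM1 (ENSG00000111206, chromosome 12), the transcription factor that drives many genes of G2 and M phase, had the largest difference of the 36 in ER5. FOXM1 was at 17.5, 11.3 and 19.2 FPKM in ER5, 22.97, 21.1 and 25.3 in ER29, 24.8, 25.4 and 31.1 in ER47, 45.1, 41.4 and 46.5 in ER28 and 39.9, 44.3 and 43.00 in ER42, against 61.4, 64.4 and 63.99 in the parental line. All 15 resistant libraries were below the parental ones, and ER5 replicate 2 was lowest. FOXM1 differed by -1.95 in ER5, -1.42 in ER29, -1.20 in ER47, -0.50 in ER28 and -0.57 in ER42, each ± 0.14 (SE), and the mean was -1.13 ± 0.11 (limma, BH-adjusted p = 6.07e-07). Each of the 5 differences was called, but under quantile normalisation that of FOXM1 in ER28 was not (-0.35, limma BH-adjusted p = 0.0659).

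MKI67 (ENSG00000148773, chromosome 10) encodes Ki-67, the protein that coats mitotic chromosomes and is stained in pathology to count dividing cells. MKI67 was at 21.6, 16.2 and 25.8 FPKM in ER5, 29.5, 31.98 and 36.4 in ER29, 33.1, 38.6 and 44.6 in ER47, 55.9, 51.8 and 51.7 in ER28 and 55.9, 71.1 and 64.7 in ER42, against 72.96, 76.1 and 80.2 in the parental line. All resistant libraries were below the parental range, and ER42 replicate 2 came nearest to it. MKI67 differed by -1.82 in ER5, -1.21 in ER29, -0.97 in ER47, -0.52 in ER28 and -0.26 in ER42, each ± 0.14 (SE) and by -0.96 ± 0.11 (limma, BH-adjusted p = 3.19e-06) in the mean, and in ER42 it was not called (limma, BH-adjusted p = 0.155). The ER28 call for MKI67 was lost under quantile normalisation (-0.35, limma BH-adjusted p = 0.0779). TOP2A (ENSG00000131747, chromosome 17), the topoisomerase that untangles sister chromatids, stood at 47.9, 33.4 and 52.5 FPKM in ER5, 57.5, 52.8 and 60.4 in ER29, 76.8, 77.8 and 94.8 in ER47, 109, 103 and 111 in ER28 and 92.2, 114 and 109 in ER42, against 116, 115 and 117 in the parental line. ER42 replicate 2 was just under the parental range, and the rest were further below. Differences of TOP2A were -1.38 in ER5, -1.01 in ER29, -0.48 in ER47, -0.11 in ER28 and -0.14 in ER42, each ± 0.13 (SE), with a mean of -0.62 ± 0.10 (limma, BH-adjusted p = 9.6e-05). In ER28 and ER42 they did not pass (limma, BH-adjusted p = 0.57 and 0.413), and the ER47 call was lost under quantile normalisation (-0.17, 0.336).

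The order of the lines was nearly the same from gene to gene. In 35 of the 36 genes mean FPKM stood, from low to high, in the order ER5, ER29, ER47 and then ER28 and ER42. INCENP was the exception, with ER29 at 41.4 FPKM and ER5 at 41.6. ER28 was below ER42 in 24 genes and above it in 12, and the parental line was highest in 34. Every library of ER5 lay below every parental library in 36 genes (30.5% of all genes tested), of ER29 in 36 (31.1%), of ER47 in 35 (33.1%), of ER28 in 32 (28.8%) and of ER42 in 26 (28.4%). All 15 resistant libraries lay below all parental ones in 26 of the 36, against 15.9% of all genes tested.

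An F test among the 5 resistant lines was called in all 36 genes, where 52.3% of all genes tested were (limma, BH-adjusted). Between pairs of lines, ER5 was lower than ER28 in 36 genes (median -1.18, against 17.0% of all genes tested) and lower than ER42 in 36 (median -1.20, against 21.4%). ER5 was lower than ER47 in 34 (median -0.69, against 9.16%), all but AURKA and INCENP. ER28 was higher than ER29 in 36 (median 0.81, against 12.6%), and ER29 was lower than ER42 in 36 (median -0.86, against 15.5%). ER28 was higher than ER47 in 23 (median 0.46, against 11.4%) and ER42 was higher than ER47 in 29 (median 0.50, against 11.8%). Of these, the ER28 and ER47 count fell to 13 and 14 without ER28 replicate 1 or 3 and to 14 and 13 without ER47 replicate 1 or 2. The ER42 and ER47 count fell to 12 without ER42 replicate 2, 13 without ER47 replicate 1 and 15 without ER47 replicate 2.

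Neighbours in the order were less distinct. ER5 and ER29 differed in 9 genes, all lower in ER5 (median of the 36 -0.33, against 9.57% of all genes tested). These were CDK1, MAD2L1, CENPA, CENPE, NUF2, SPC25, HMMR, MKI67 and FOXM1. The count was 4 without ER5 replicate 2, 22 without ER5 replicate 3, 3 without ER29 replicate 3 and 16 with protein-coding genes only. ER29 and ER47 differed in 4 genes, all lower in ER29 (median -0.34, against 2.05%), namely CCNB2, TTK, HMMR and TOP2A. That count was 0 without ER29 replicate 1 or 2, without ER47 replicate 2 or 3 and with no filter, and 1 without ER29 replicate 3. It was 2 without any 1 of the parental libraries, ER28 replicate 3 or ER47 replicate 1 or with no intensity trend, but 12 without ER5 replicate 2. With protein-coding genes only it was 7, and it was 8 under either quantile normalisation or median-of-ratios scaling.

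ER28 and ER42 differed in 0 of the 36 genes (limma, BH-adjusted; also 0 at an unadjusted p under 0.05), although 21.2% of all genes tested differed between them. Their differences lay between -0.26 for MKI67 and 0.21 for KIF4A, with SE between 0.085 and 0.168 and a median of -0.05. The lowest adjusted p was 0.212. These 2 lines came from different dosing intervals. With the line as the unit, the lines of 4-hour dosing and those of 6-hour dosing were compared over the 5 line means. The median difference was -0.46, taken as 4-hour minus 6-hour lines, and the differences lay between -0.67 for CENPA and -0.26 for INCENP. No gene was called (0 of 36 adjusted and 0 at an unadjusted p under 0.05, lowest adjusted p 0.829), and over all genes tested 0.0152% were called and 4.34% had such an unadjusted p.

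Within a line, the genes shifted together from library to library. ER5 replicate 2 was the lowest of its line in 35 of the 36 genes. At the median gene it stood at -1.94 from the parental mean, against -1.43 in replicate 1 and -1.34 in replicate 3. ER47 replicate 3 was the highest of its line in all 36 genes (-0.65, against -0.95 and -0.94). ER29 replicate 3 and ER42 replicate 2 were each the highest of their line in 33. The median of all genes tested moved by far less, from -0.00941 to 0.0176 around the line mean. Relative depth, a rough estimate, was 1.43, 1.80 and 1.13 in ER5 replicates 1 to 3 and 1.18, 1.11 and 1.35 in those of ER47. Its part in these shifts was not tested.

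**Figure D3:**
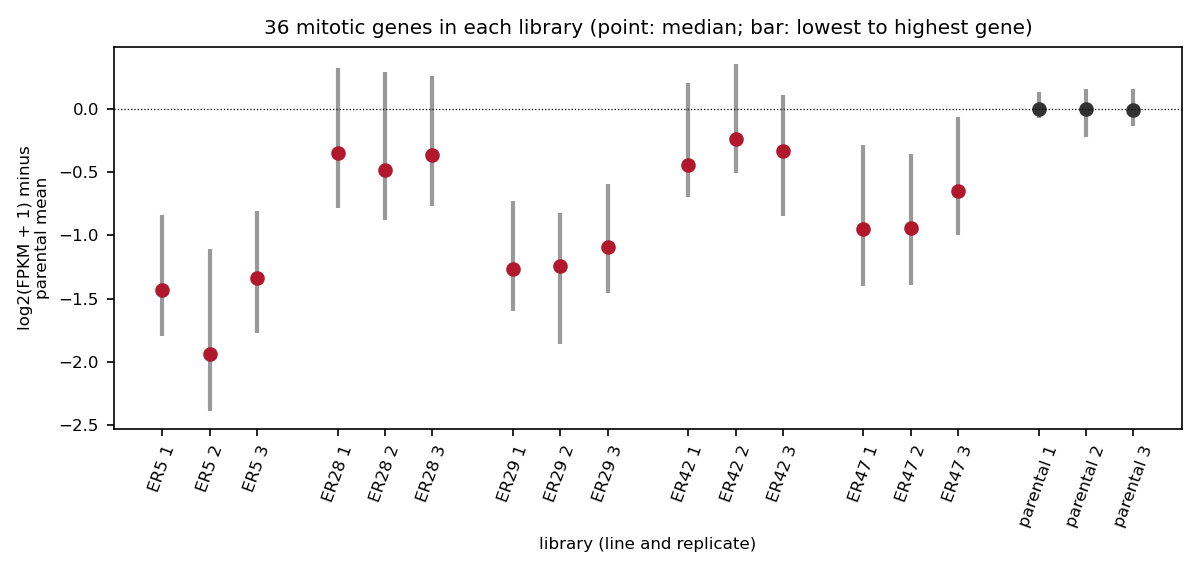
Difference of log2(FPKM + 1) from the parental mean in each of the 18 libraries, for the 36 mitotic genes. Points are medians over the genes, red for resistant and dark grey for parental libraries, and bars run from the lowest to the highest gene. ER5 replicate 2 is lowest at a median of -1.94, and the libraries of ER28 and ER42 lie closest to the parental ones.

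Over the whole series, libraries had 1 to 1.95 times the depth of parental replicate 1, judged from steps in low values. These depths are rough: the commonest ratio held 17.8% to 54.3% of the 150 to 266 low genes used for a library. Summed FPKM of a neuroblastoma list of 11 genes were 1523 to 2958 in resistant libraries and 3968 to 4190 in parental ones, and 10 of its 11 genes reached 1 FPKM. A fibroblast list summed to between 38.7 and 97.1 in resistant and between 39.0 and 46.3 in parental libraries, with the highest value in ER42. Endothelial and leukocyte lists summed to at most 1.53 and 2.04, with PECAM1 and CD3E at 0 throughout. A list for Schwann cells and glia summed to 3.16 to 5.82 in resistant and 1.82 to 2.29 in parental libraries. The part of these markers in the results was not tested.

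Exons of 15 of the 36 genes overlap another gene, and no source used here says whether reads were counted by strand. CENPA, BUB1B and PRC1 overlap SLC35F6, BUB1B-PAK6 and AC068831.7 on the same strand, so shared exons could not be told apart by strand either. BUB1B-PAK6 reached at most 0.173 FPKM, and no value is given here for AC068831.7. SLC35F6 had means of 12.9 FPKM in ER5, 17.97 in ER29, 16.4 in ER47, 20.9 in ER28 and 17.3 in ER42, against 22.9 in the parental line. CENPA had 6.72 ± 1.58, 13.1 ± 0.72, 18.2 ± 5.37, 21.0 ± 1.53 and 22.9 ± 2.31 FPKM in these lines, in that order, against 25.5 ± 1.13 (SD, n = 3 each). Both were lowest in ER5 and highest in the parental line. The most abundant neighbour was RGS5 (ENSG00000143248), opposite NUF2. RGS5 had means of 681 FPKM in ER5, 722 in ER29, 838 in ER47, 500.2 in ER28 and 1459 in ER42, against 2201 in the parental line. NUF2 had 13.5 ± 3.17, 21.2 ± 2.02, 27.9 ± 3.33, 43.2 ± 4.91 and 41.4 ± 5.91 FPKM in these lines, in that order, against 46.7 ± 0.82 (SD, n = 3 each). The order of the lines differed between the pair: ER28 was lowest for this RGS5 entry and highest of the resistant lines for NUF2. A second entry under the symbol RGS5 (ENSG00000232995) went the other way. It had means of 8.47 to 12.5 FPKM in the resistant lines, against 8.36 in the parental line. EXOSC9, opposite CCNA2, had 20.6 to 32.3 in the resistant lines, against 40.1 in the parental line. PRC1-AS1 had 3.47 to 8.26, against 11.3, and KIAA0895, opposite ANLN, had 4.64 to 8.14, against 14.2. PDZD11, opposite KIF4A, had 19.9 to 24.65, against 32.1. Other neighbours did not fall in this way. ITFG2, opposite FOXM1, was higher in the resistant lines, at 22.5 to 29.8, against 19.7. FAM53C, opposite CDC25C and above it in level, had 15.3 to 21.2, against 17.1. Opposite KIF20A, BRD8 had 31.6 to 37.0, against 32.2, and CDC23 had 17.0 to 20.8, against 21.4. Near-identical copies were low: KIF4B reached 0.0468 FPKM, PTTG3P reached 0.732 and PTTG2 was listed at 0.

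A further 132 mitotic genes in 7 lists were examined beside the 36, and all 132 were tested. In the mean of the 5 lines 102 were called lower, 6 higher and 24 neither (28.9% of all genes tested were lower and 23.9% higher), and their median difference was -0.53. Within all 5 lines 37 were lower and 3 higher (12.3% and 5.63% of all genes tested). All 13 of the other mitotic kinases and CDK1 regulators were lower (median -0.75). So were 23 of 24 other kinesins, spindle and cytokinesis genes (median -0.81), while the last of them was higher. Of 28 other kinetochore and centromere genes 24 were lower (median -0.57), of 20 cohesin and condensin genes 14 were (median -0.49), and of 11 centriole genes 9 were (median -0.32).

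The list of checkpoint genes and anaphase-promoting complex subunits moved least, with a median of -0.15. In the mean 10 of its 21 genes were lower and 2 higher (28.9% and 23.9% of all genes tested were). Those higher were the core subunits ANAPC2 (0.24) and ANAPC4 (0.22). Of 15 regulators of the DREAM and MuvB complexes 9 were lower and 3 higher (median -0.26). The 10 genes with the largest differences were MYBL2, PKMYT1, CDC25A, CEP55, RACGAP1, PBK, ZWINT, MELK, UBE2S and CDCA5, from -1.54 to -1.13, each lower in all 5 lines. MYBL2, the MYB factor that works with MuvB before FOXM1, averaged 16.9 ± 4.36 FPKM in ER5, 27.0 ± 3.23 in ER29, 28.9 ± 6.91 in ER47, 54.4 ± 6.64 in ER28 and 47.1 ± 4.60 in ER42, against 94.5 ± 1.16 in the parental line (SD, n = 3 each). Its difference of -1.54 ± 0.14 was larger than that of any of the 36 genes (limma, BH-adjusted p = 2.3e-07). PKMYT1, a kinase that restrains CDK1, differed by -1.49 ± 0.12.

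Higher in all 5 lines were TFDP2, a dimerisation partner of E2F factors (0.73), NUMA1, which anchors spindle poles (0.53), and RBL2, the pocket protein p130 of the DREAM repressor (0.39). NFYB, a subunit of NF-Y, was higher in the mean (0.17) and in ER28. Of 23 genes of DNA replication and S phase 22 were lower in the mean (28.9% of all genes tested were), with a median of -0.84. In all 5 lines 6 were lower (12.3% of all genes tested were). In that list too ER28 and ER42 stood nearest to the parental line, with medians of -0.37 and -0.31, against -1.45 in ER5, -1.11 in ER29 and -0.92 in ER47. A list of 14 genes linked to cell cycle arrest, 13 of them tested, went both ways in the mean. Its median was 0.15, with 5 lower and 6 higher (28.9% and 23.9% of all genes tested were). CDKN1A, the CDK inhibitor p21, was lower in all 5 lines (mean -1.48 ± 0.09), and CCNG2, a cyclin linked to quiescence, was higher in all 5 (mean 0.81 ± 0.04).

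**Figure D4:**
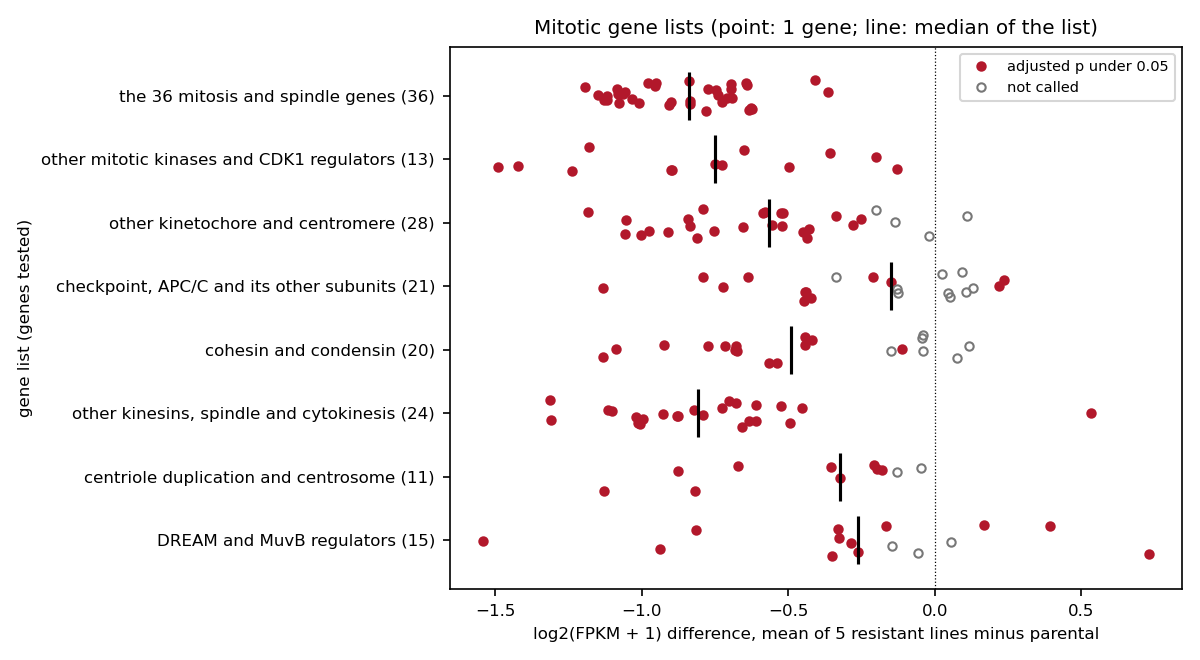
Log2(FPKM + 1) difference of the mean of the 5 resistant lines from the parental line for each gene of the mitotic gene lists. Each point is 1 gene, open where the adjusted p was 0.05 or more, and each line is the median of its list. The 36 genes lie entirely below 0 with a median of -0.84, and the other 7 lists have medians between -0.81 and -0.15.

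Protein-coding genes outside these lists were ranked by the correlation of their log2 values with the mean of the 36 genes over the 18 libraries. The 10 most alike were CDCA2 (r = 0.992), H2AFZ (0.990), CHAF1A (0.988), MAGOHB (0.988), PRR11 (0.987), CTNNAL1 (0.987), TIMELESS (0.986), ARHGAP11A (0.986), PIMREG (0.985) and UBE2T (0.984). Of the 36 themselves, r with the mean ranged from 0.931 for CENPF and 0.934 for HMMR to 0.997 for TPX2. These are descriptions: the libraries of a line share their source, and each of the 36 is part of the mean it is set against.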

How the data were processed

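The 18 libraries were made from total RNA (Qiagen AllPrep) with the KAPA RNA HyperPrep kit, which removes ribosomal RNA, per the labels' protocols. HiSeq and NextSeq instruments were both used, and no source used here assigns libraries to them. STAR 2.5.3, featureCounts, Subread 1.5.0-p1, STAR-Fusion and hg19 are named in the submitters' processing notes. The authors deposited FPKM values for 63657 identifiers. How these were computed, with which library totals and with or without strand, is not stated in those sources. The values are not counts, so no count test was run, and depth beyond the steps in low values is unknown.

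Symbols came from GENCODE 29, which held 52514 of the identifiers. Since the values were made on hg19, no gene coordinates are given. Promoters came from RefSeq (GRCh38.p14). No pair of libraries was identical (0 pairs), and 0 value columns lacked a sample. Genes that reached FPKM 1 in 3 or more libraries (19799) were tested on log2(FPKM + 1), a scale that understates changes of low genes. A single limma fit with a mean-variance trend took in all 18 libraries, each line having its own coefficient, with two-sided tests and Benjamini-Hochberg adjustment over all genes tested (R 4.3.3, limma 3.58.1, Python 3.11.15). A gene was called at an adjusted p under 0.05. For the dosing intervals, limma was run on the means of the 5 lines. The procedure was tested on simulated data.

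The 36 genes, the other lists and the motifs were chosen with earlier results of these data known. Values per library are given for the genes of largest and smallest mean difference in each role and for FOXM1, MKI67 and TOP2A, 17 in all. Of the other mitotic genes the 10 with the largest differences and those called higher are named. Alternatives were pseudocounts of 0.1 and 5, no filter, a filter at FPKM 5, median-of-ratios scaling, quantile normalisation, the replicate number as a block, no intensity trend, protein-coding genes only, each line fitted with the parental libraries only, and leaving out each library.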

Additional observations from a re-analysis of the deposited data

Results flagged for a closer look

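The 17 genes with values per library in the report were chosen by the rule given above and not by the comparison used here. Each is listed with a test of whether its level was the same in the 5 resistant lines, and the listing did not depend on the outcome. The comparison was an F test among the 5 lines in limma, with BH-adjusted p-values over all genes tested. The adjusted p was lowest for PRC1 (3.48e-06), MKI67 (3.99e-06), KIF4A (4.02e-06), CDC25C (4.34e-06), FOXM1 (4.37e-06), TOP2A (4.75e-06). It was somewhat higher for HMMR (5.29e-06), CENPF (9.38e-06), CDC20 (9.76e-06), INCENP (1.29e-05), KIF11 (1.29e-05), TTK (1.84e-05). The highest were those of BUB1B (3.17e-05), CDCA8 (4.25e-05), CCNB1 (4.82e-05), AURKA (0.000121) and NDC80 (0.000168). All 36 mitotic genes passed this test, as did 52.3% of all genes tested. In each of the 17, ER28 and ER42 lay closer to the parental line than ER5 and ER29 did. CENPF and HMMR also differed in sign, with positive differences in ER28 and ER42 that were not called and negative, called differences in ER5 and ER29.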

How the results depend on the processing

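The counts of the 36 genes called lower in ER5 (36), ER29 (36), ER47 (35) and the mean of the 5 lines (36), and of those in the F test (36), stayed within 1.5 times under every alternative that was run for them. Leaving out each library gave 36 to 36 for ER5, ER29, the mean, the F test, ER5 against ER28, ER5 against ER42 and ER29 against ER42. It gave 33 to 36 for ER47, 13 to 23 for ER28, 8 to 21 for ER42 and 8 to 19 for all 5 lines. Among pairs it gave 3 to 22 for ER5 against ER29, 28 to 35 for ER5 against ER47, 34 to 36 for ER28 against ER29, 13 to 30 for ER28 against ER47, 0 to 12 for ER29 against ER47 and 12 to 34 for ER42 against ER47. Counts of genes called higher in each line, of ER28 against ER42 and of the dosing intervals were 0 to 0. Quantile normalisation gave 10 lower and 1 higher in ER28 and 5 lower and 1 higher in ER42. It gave 4 in all 5 lines and 8 in ER29 against ER47. All genes tested then split into 24.0% lower and 25.3% higher in the mean, against 28.9% and 23.9%. In ER28 they split into 15.75% lower and 16.4% higher, and in ER42 into 18.4% and 16.1%. ER28 fitted with the parental libraries only had 29 lower and 1 higher. No filter gave 13 in ER42, 11 in all 5 lines and 0 in ER29 against ER47. ER29 against ER47 gave 8 with median-of-ratios scaling and 2 with no intensity trend. Protein-coding genes only gave 7 there and 16 in ER5 against ER29. The causes were not tested.

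For the 17 genes with values per library, 2709 differences under alternatives kept their direction and their side of the threshold, 33 lost the call, 8 gained it and 4 changed sign, all under quantile normalisation. These were KIF11 in ER28 (0.013), TOP2A in ER28 (0.0804), BUB1B in ER42 (0.0902) and TOP2A in ER42 (0.0877). Under that setting INCENP (-0.16), PRC1 (-0.33), MKI67 (-0.35) and FOXM1 (-0.35) in ER28 and CCNB1 (-0.37), CDC20 (-0.35), INCENP (-0.06), KIF4A (-0.27) and PRC1 (-0.15) in ER42 were no longer called, nor were TOP2A (-0.17) and CENPF (-0.11) in ER47. In the mean of the 5 lines CENPF (-0.15) and HMMR (-0.23) also lost their calls there. No scaling moved the median of all genes tested by more than 0.0443, but quantile normalisation moved the median of the 36 further. In the mean of the 5 lines that median became -0.70, against -0.84. By line it became -1.42 in ER5 (against -1.58), -1.02 in ER29 (-1.19) and -0.65 in ER47 (-0.85). In ER28 it became -0.24 (against -0.37) and in ER42 -0.19 (-0.36).

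Replicate numbers did not pair the libraries: same-numbered libraries deviated together with a mean r of 0.0168 (-0.263 to 0.230 over 45 pairs, 5 of them over 0.1), and 4 of 18 libraries correlated best with their own number. With the replicate number as a block, 19 genes were lower in ER28, 19 in ER42 and 16 in all 5 lines, 12 differed between ER5 and ER29 and 26 between ER28 and ER47.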
